A study of Mus musculus with 4 samples.

Results

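A set of 31 mouse genes for neuronal potassium channels and their partners, out of 32285 genes counted, was examined in nuclei of the spinal dorsal horn. The genes were listed by symbol, and all 31 were found in the count tables and had enough counts to be tested. They code for voltage-gated subunits (Kcna1, Kcna2, Kcna4, Kcna6, Kcnb2, Kcnc1, Kcnc2, Kcnc4, Kcnd2, Kcnd3, Kcnq3, Kcnq5, Kcnh1, Kcnh5, Kcnh7 and Kcnh8), calcium-activated channels (Kcnn2, Kcnn3 and Kcnma1), sodium-activated channels (Kcnt1 and Kcnt2) and G protein-gated channels (Kcnj3 and Kcnj6). A tandem-pore channel (Kcnk2) and the accessory proteins Kcnip1, Kcnip2, Kcnip3, Kcnip4, Kcnab1, Kcnab2 and Kcnmb2 complete the set.

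The study profiled single nuclei from mice with and without Gpr37l1, a receptor coupled to G proteins and expressed by astrocytes, either naive or 1 day after spared nerve injury (SNI), in which branches of the sciatic nerve are cut to model neuropathic pain. There were 4 groups of 1 library each: Gpr37l1+/+ naive, Gpr37l1-/- naive, Gpr37l1+/+ SNI and Gpr37l1-/- SNI. They are called wild-type naive and knockout naive, then wild-type SNI and knockout SNI, and every series of 4 values follows that order. The knockout was not restricted to a cell type by anything the labels say, and the sources used here do not give strain, sex, age or how many animals each library holds. Titles set the groups. A treatment tag disagrees for the knockout naive library (tagged as injured) and for the wild-type SNI library (tagged as naive), so each injury contrast and each genotype contrast below depends on the titles.

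Potassium channels let potassium leave the cell and so return the membrane towards rest. Channels of the Kcnd family, assembled with the calcium-binding Kcnip proteins, carry the A-type current that delays firing, and this current is a known brake on excitatory dorsal horn neurons. Kcna channels with their Kcnab partners set the threshold and shape of spikes along the axon, Kcnc channels repolarise quickly enough for fast firing, and Kcnq channels carry the M-current that limits repetitive firing. Calcium-activated channels open after spikes and shape the hyperpolarisation that follows, and G protein-gated Kcnj channels are opened by opioid, GABA-B and adenosine receptors.

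The promoters of 4 members are shown because these genes had some of the largest differences between excitatory and inhibitory neurons, the pair Kcnip3 and Kcnip2 higher in inhibitory nuclei and the pair Kcnn3 and Kcnd3 higher in excitatory nuclei. In each direction they were the members with the largest differences for which the reference held a window lying wholly before the annotated gene. Each run is the 250 bases before the RefSeq start on GRCm38.p6, read 5′ to 3′ on the gene's strand, with the E-box CAGCTG in capitals.
Kcnip3 (chr2:127522095-127522344, minus strand): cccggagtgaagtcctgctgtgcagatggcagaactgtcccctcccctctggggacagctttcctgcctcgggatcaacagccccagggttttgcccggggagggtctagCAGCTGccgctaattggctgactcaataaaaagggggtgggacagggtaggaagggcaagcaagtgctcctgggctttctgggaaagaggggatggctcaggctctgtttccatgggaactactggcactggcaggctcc
Kcnip2 (chr19:45816064-45816313, minus strand): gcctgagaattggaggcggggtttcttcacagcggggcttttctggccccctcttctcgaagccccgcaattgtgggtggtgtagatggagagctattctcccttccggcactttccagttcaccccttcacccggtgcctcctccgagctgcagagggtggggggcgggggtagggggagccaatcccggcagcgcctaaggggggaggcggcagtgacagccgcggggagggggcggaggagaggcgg
Kcnn3 (chr3:89519914-89520163, plus strand): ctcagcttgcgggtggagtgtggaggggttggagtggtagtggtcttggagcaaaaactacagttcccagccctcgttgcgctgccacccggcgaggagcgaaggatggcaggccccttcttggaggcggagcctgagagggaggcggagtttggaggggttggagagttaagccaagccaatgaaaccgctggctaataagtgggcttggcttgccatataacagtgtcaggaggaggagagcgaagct
Kcnd3 (chr3:105451640-105451889, plus strand): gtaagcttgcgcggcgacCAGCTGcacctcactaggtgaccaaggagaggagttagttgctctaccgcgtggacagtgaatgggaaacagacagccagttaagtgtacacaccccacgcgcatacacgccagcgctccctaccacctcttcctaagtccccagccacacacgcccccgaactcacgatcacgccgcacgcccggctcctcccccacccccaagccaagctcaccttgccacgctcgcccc
Promoter windows were found for 26 of the 31 members. The motif CAGCTG was in the window nearest the annotated start of 6 of these 26 genes (Kcna2, Kcnc2, Kcnd3, Kcnj3, Kcnip1 and Kcnip3), among them 1 of the pair higher in each class shown, and it was in 13.0% of all 32851 windows of that length. The homeodomain core TAATTA was in 0 of the 26 and in 4.84% of all windows. Both motifs read the same on either strand and cannot overlap each other, and a match here is a description of letters only.

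The libraries held 19942 to 37552 called barcodes and 35197290 to 69572640 unique molecular identifiers (UMIs, each 1 captured RNA molecule), with a median of 1284 to 1509 UMIs per barcode. After quality and doublet filters, nuclei were clustered without using any potassium channel gene, and clusters were named from marker genes. The named classes held 24806 excitatory-like, 12105 inhibitory-like, 6398 astrocyte-like, 18863 oligodendrocyte-like, 2265 oligodendrocyte-precursor-like (OPC) and 3054 microglia-like nuclei, and 33353 nuclei stayed unnamed. The unnamed nuclei included a neuron-like cluster of 16426 that met the naming rule of neither the excitatory nor the inhibitory class. Its mean log2 ratio to all other nuclei was -1.435 over the excitatory markers and -0.239 over the inhibitory ones. Slc17a6 stood at -0.37 there and the highest inhibitory transmitter gene at 0.84. By these markers it lay nearer the inhibitory class, which may therefore lack a large group. The neurons described here are thus a part of all dorsal horn neurons. Levels are in CPM, which divides a gene's UMIs by all non-mitochondrial UMIs of its class in that library and scales them to a common total. The excitatory transmitter gene Slc17a6 stood at 148, 139, 139.5 and 144 CPM in excitatory nuclei and 36.3, 59.1, 50.2 and 44.5 CPM in inhibitory nuclei. Gad1, which makes GABA, stood at 22.8, 26.9, 23.5 and 22.5 CPM and 117, 92.9, 108 and 112 CPM. Both markers differed between the classes in every library. Both were among the markers that named the clusters, so this is no independent check of the classes. As a check of the genotype, Gpr37l1 in astrocytes was 135, 0, 111 and 1.25 CPM, and in neurons (both classes) it was 8.11, 0.159, 17.6 and 0.0638 CPM. Both knockout libraries were far below both wild-type libraries. Between 162 and 293 barcodes were shared by each pair of libraries. The knockout naive library stood apart in glia. Its oligodendrocytes lay mostly in cluster 3 and those of the other libraries in clusters 1 and 5. Its astrocytes lay mainly in cluster 16 and those of the others in cluster 6. Knockout naive microglia lay mainly in cluster 19 (93, 809, 311 and 615 nuclei) and few in cluster 23 (333, 17, 364 and 512). Unnamed nuclei were uneven too: cluster 2 held 40, 4037, 3696 and 139. Its high counts were in the libraries whose treatment tag disagrees with the title. Each genotype and injury contrast sets a library of that pair against a library outside it. Cluster 2 was in no named class, and the cause of its uneven counts was not tested.

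**Figure D1:**
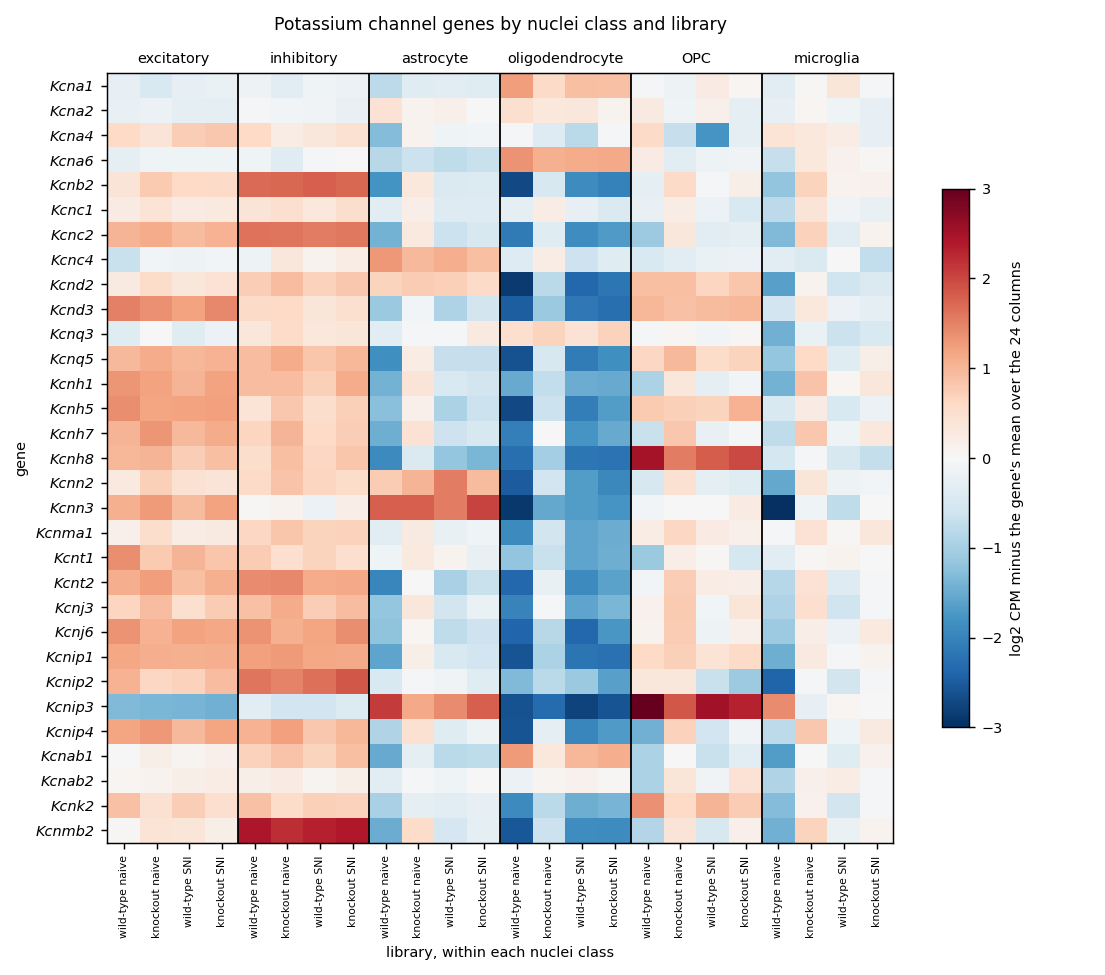
Level of each of the 31 genes (rows) in 6 nuclei classes with 4 libraries each (columns), as log2 CPM minus the gene's mean over the 24 columns, red above and blue below. Most rows are red in the excitatory and inhibitory columns and blue in oligodendrocytes, while Kcna1 and Kcna6 are reddest in oligodendrocytes and Kcnip3 in OPC and astrocytes.

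Excitatory and inhibitory neurons expressed these genes in different proportions. Of the 31 genes, 15 were lower and 8 higher in excitatory nuclei (edgeR quasi-likelihood test on UMIs summed per class and library, 4 libraries, adjusted p under 0.05), while 8 did not pass. By the same test 28.7% of all 15604 genes passed, 13.9% lower and 14.8% higher in excitatory nuclei. Neither abundance nor gene length was matched between the members and all genes, here or in the shares of all genes given below. Only 9 of the 23 passing members differed by over 1.5-fold, where 11.2% of all genes tested passed and did so, and the median log2 difference of the 31 was -0.12 against 0.004 for all genes tested. In 26 of the 31 the ratio had 1 sign in all 4 libraries, which was not counted over all genes tested. Without the library as a block, 12 members passed (3 higher, 9 lower), and the 11 that no longer did were Kcnc1, Kcnc4, Kcnh1, Kcnh7, Kcnh8, Kcnn2, Kcnt1, Kcnt2, Kcnj3, Kcnip1 and Kcnip4. How nuclei were assigned also mattered: with each library clustered on its own, inhibitory-like nuclei numbered 4530, 3560, 2206 and 7547 in place of 2445, 3890, 2442 and 3328, and 17 members passed (8 higher, 9 lower). The values that this clustering moved by over 1.5 times are given beside each gene below. The libraries are the replicates of this test; the labels do not say how many animals each holds, so the p-values measure the spread between libraries only.

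**Figure D2:**
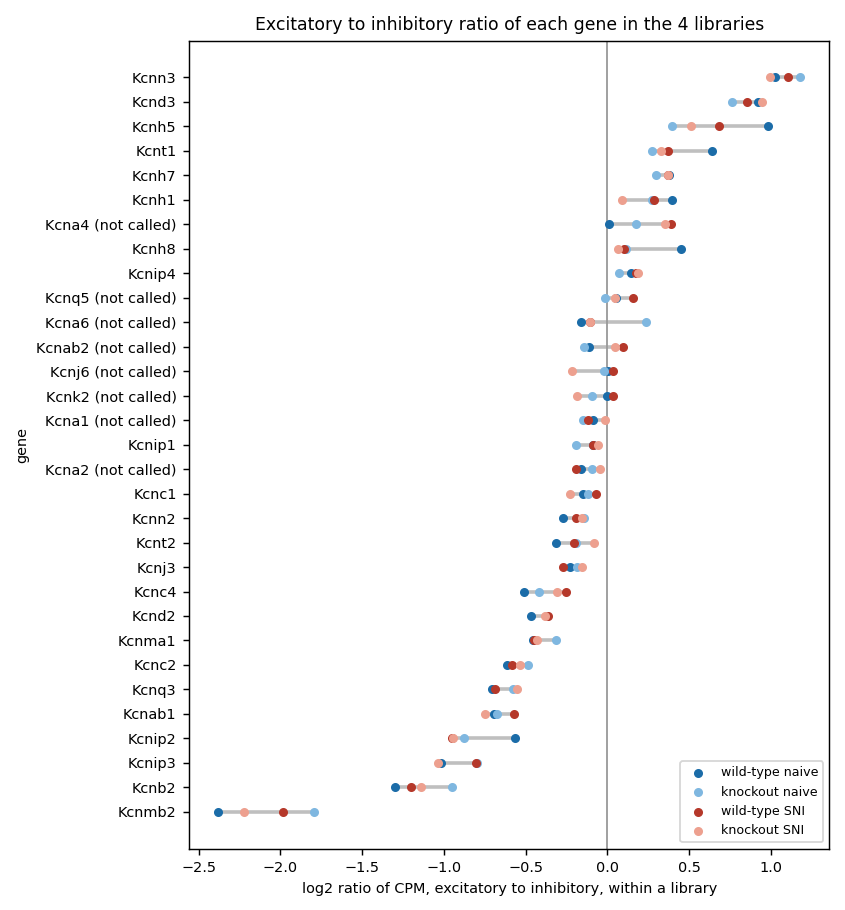
Log2 ratio of CPM in excitatory to inhibitory nuclei (horizontal) for each of the 31 genes (vertical), with 1 point per library and a grey bar over their range; genes that did not pass the edgeR test are marked as not called. Kcnmb2 lies between -2.38 and -1.80 at the bottom and Kcnn3 between 0.99 and 1.18 at the top, and the points of the genes near 0 fall on both sides.

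Among the calcium-activated channels and their partners, Kcnmb2 had the largest difference of the set. Kcnmb2 (ENSMUSG00000037610, chr3:31902507-32200180, + strand) codes for a subunit that makes the large-conductance channel inactivate. It stood at 103, 134, 129 and 113 CPM in excitatory nuclei and 538, 463, 509 and 529 CPM in inhibitory nuclei. Every inhibitory value lay far above every excitatory value, with a mean within-library log2 ratio of -2.10 ± 0.26 (SD, n = 4) and a fitted log2 difference of -2.09 (edgeR adjusted p = 2.07e-18). Kcnma1, the pore of that channel, was 653, 846, 682 and 702 CPM in excitatory and 898, 1051, 931 and 946 CPM in inhibitory nuclei. The pore gene went the same way as its subunit but by less, with a log2 difference of -0.42 (edgeR adjusted p = 1.16e-10). The small-conductance channels Kcnn3 and Kcnn2, which open on calcium alone, went opposite ways. Kcnn3 (ENSMUSG00000000794, chr3:89520164-89675132, + strand) was 48.4, 56.2, 44.4 and 53 CPM in excitatory and 23.7, 24.8, 20.5 and 26.6 CPM in inhibitory nuclei, so all excitatory values exceeded all inhibitory ones. Its mean within-library log2 ratio was 1.08 ± 0.08 (SD, n = 4; edgeR adjusted p = 1.18e-12), the largest rise in excitatory nuclei among the 31, and its promoter, printed above, holds neither motif. Kcnn2 was 252, 336, 281 and 269 CPM in excitatory and 304, 372, 320.5 and 300.1 CPM in inhibitory nuclei. The 2 ranges of Kcnn2 overlapped between libraries, yet inhibitory was the higher class within each of the 4, and the log2 difference was -0.20 (edgeR adjusted p = 6.01e-05).

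The A-type genes divided by subunit. Kcnd3 (ENSMUSG00000040896, chr3:105452330-105674002, + strand) was 412, 375, 338 and 395 CPM in excitatory and 218, 222, 187 and 205 CPM in inhibitory nuclei, and the groups did not overlap. The mean within-library log2 ratio of Kcnd3 was 0.87 ± 0.08 (SD, n = 4; edgeR adjusted p = 2.36e-15). Kcnd2, the other pore subunit of the same current, went the other way. It was 2368, 2880.3, 2463 and 2646 CPM in excitatory and 3276, 3726, 3173 and 3447 CPM in inhibitory nuclei, with a log2 difference of -0.41 (edgeR adjusted p = 6.84e-12). In the neuron clusters described below, Kcnd2 means overlapped, from 1269 to 5002 CPM in excitatory and 2743 to 4858 CPM in inhibitory clusters. The top Kcnd2 cluster, 24, was excitatory. Of the 4 Kcnip partners, 3 were higher in inhibitory nuclei. Kcnip3 (ENSMUSG00000079056, chr2:127456498-127522094, - strand), a calcium sensor also known as a transcriptional repressor, was 25.2, 24.6, 24.2 and 23.1 CPM in excitatory and 51.1, 42.7, 42.2 and 47.4 CPM in inhibitory nuclei. Its log2 ratio was -0.91 ± 0.13 (SD, n = 4; edgeR adjusted p = 5.62e-11). Kcnip2 (ENSMUSG00000025221, chr19:45791839-45816061, - strand) was 26.4, 19.8, 20.8 and 24.5 CPM and 39.1, 36.3, 40.3 and 47.1 CPM, again without overlap, and its log2 ratio was -0.83 ± 0.18 (SD, n = 4; edgeR adjusted p = 8.18e-10). Kcnip1 differed little, at 509, 488, 481 and 487 CPM in excitatory and 539.6, 558, 512 and 508 CPM in inhibitory nuclei, with a log2 difference of -0.12 (edgeR adjusted p = 0.00627). Kcnip4 was the 1 partner higher in excitatory nuclei, at 5507, 6035, 4800.3 and 5537 CPM against 4981, 5740, 4252 and 4859 CPM, and the ranges overlapped. Its log2 difference was only 0.14 (edgeR adjusted p = 1.34e-04). Over the neuron clusters described below, the median of the Kcnip4 cluster means went the other way, at 3905 CPM in excitatory and 4278 CPM in inhibitory clusters. With each library clustered on its own, Kcnip2 was -0.35 and did not pass (edgeR adjusted p = 0.197), Kcnip3 was -0.57 (edgeR adjusted p = 0.00641), Kcnip4 was 0.27 (edgeR adjusted p = 0.0237) and Kcnip1 did not pass (edgeR adjusted p = 0.443). At Leiden resolution 0.5, Kcnip1 was -0.30 and Kcnip4 0.23. Kcnip1 and Kcnip4 did not pass with DESeq2 (adjusted p = 0.215 and 0.0652).

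Kcnb2 and the 3 Kcnc genes were higher in inhibitory nuclei by the test, the Kcnc genes less firmly. Kcnb2 (ENSMUSG00000092083, chr1:15287254-15723750, + strand) was 481, 628, 549 and 544 CPM in excitatory and 1187, 1215, 1262 and 1198 CPM in inhibitory nuclei. It codes for a delayed rectifier, which repolarises the spike, and every inhibitory value exceeded every excitatory one, with a mean log2 ratio of -1.15 ± 0.15 (SD, n = 4; edgeR adjusted p = 7.68e-17). Kcnc2, a fast rectifier, was 653, 698, 621 and 666 CPM in excitatory and 999.6, 976, 931 and 965 CPM in inhibitory nuclei, without overlap, and its log2 difference was -0.56 (edgeR adjusted p = 3.40e-13). Its means did overlap between the neuron clusters described below, from 252.6 to 1649 CPM in excitatory and 538.6 to 1615 CPM in inhibitory ones. The top Kcnc2 cluster, 10, was excitatory. Kcnc4, a fast rectifier that inactivates, was 11.8, 17.6, 16.9 and 17.8 CPM and 16.9, 23.6, 20.1 and 22 CPM. It was higher in inhibitory nuclei within each library, although the ranges overlapped, and its log2 difference was -0.38 (edgeR adjusted p = 0.00108). Kcnc1 was 140.0, 155, 140.4 and 145 CPM and 155, 168, 147 and 169.6 CPM, a log2 difference of -0.15 (edgeR adjusted p = 0.00350). These small differences of Kcnc4 and Kcnc1 did not pass with DESeq2 (adjusted p = 0.0892 and 0.185), and Kcnc1 did not pass without the knockout SNI library (edgeR adjusted p = 0.0583). With each library clustered on its own, none of the 3 Kcnc genes passed: Kcnc2 was -0.20 (edgeR adjusted p = 0.340), Kcnc4 -0.10 (edgeR adjusted p = 0.577) and Kcnc1 -0.055 (edgeR adjusted p = 0.481).

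The M-current pair differed from each other. Kcnq3 was 554, 707, 551 and 631 CPM in excitatory and 905, 1054, 887 and 926 CPM in inhibitory nuclei, all inhibitory values being higher, with a log2 difference of -0.64 (edgeR adjusted p = 9.65e-14). Kcnq5 had a log2 difference of 0.05 and did not pass (edgeR adjusted p = 0.284). Among the Kcna channels none of the 4 passed: Kcna1 had a log2 difference of -0.10, Kcna2 -0.13, Kcna4 0.23 and Kcna6 -0.02. Of these Kcna1 and Kcna2 were lower in excitatory nuclei in all 4 libraries and Kcna4 higher in all 4, which the test did not separate from the spread. Their partner Kcnab1 did differ. It was 220.1, 249, 234 and 245 CPM in excitatory and 355, 398, 348 and 412 CPM in inhibitory nuclei, without overlap, and its log2 difference was -0.68 (edgeR adjusted p = 5.45e-14). The second partner, Kcnab2, did not pass (-0.04, edgeR adjusted p = 0.652).

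All 4 Kcnh genes, voltage-gated channels of the ether-a-go-go group, passed as higher in excitatory nuclei, Kcnh5 by the most. Kcnh5 was 258, 225, 227 and 229.6 CPM in excitatory and 130.3, 171, 141 and 161 CPM in inhibitory nuclei, a log2 difference of 0.61 (edgeR adjusted p = 4.91e-09). Its within-library log2 ratio was 0.64 ± 0.26 (SD, n = 4) and was largest in the wild-type naive library. Kcnh7 was 443, 541, 429 and 468 CPM and 341, 439.7, 332 and 362 CPM, and although the ranges overlapped between libraries the log2 difference was even across them at 0.34 (edgeR adjusted p = 4.19e-09). Kcnh1 was 132, 121, 106 and 122 CPM and 100.4, 100.4, 87.2 and 114 CPM, with a log2 difference of 0.25 (edgeR adjusted p = 1.06e-04). Kcnh8 was 161, 164, 135 and 151 CPM and 118, 151, 125 and 145 CPM, with a log2 difference of 0.16 (edgeR adjusted p = 0.0117). The Kcnh8 difference rested on the wild-type naive library: without it the log2 difference was 0.079 and did not pass (edgeR adjusted p = 0.190). With each library clustered on its own, Kcnh7 was 0.072 and did not pass (edgeR adjusted p = 0.508), while Kcnh1 was 0.39 and Kcnh8 0.43; after thinning to 1000 UMIs Kcnh8 was 0.25.

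The sodium-activated channels also split. Kcnt1 was 220.3, 143, 169.7 and 148 CPM in excitatory and 141, 118, 131 and 118 CPM in inhibitory nuclei, so each excitatory value exceeded each inhibitory one, with a log2 difference of 0.39 (edgeR adjusted p = 3.54e-07). Kcnt2 was 368, 412, 324 and 359 CPM and 457, 469.9, 374 and 379.6 CPM. It was slightly higher in inhibitory nuclei of every library, by a log2 difference of -0.21 (edgeR adjusted p = 7.00e-05), but with each library clustered on its own the sign turned, at 0.18 (edgeR adjusted p = 0.381). Over the neuron clusters described below, the median of the Kcnt2 cluster means also went the other way, at 332 CPM in excitatory and 213 CPM in inhibitory clusters. Inhibitory cluster 18 alone averaged 1388 CPM. Of the G protein-gated pair, Kcnj3 was 342, 418, 304 and 373 CPM in excitatory and 401, 477, 367 and 415 CPM in inhibitory nuclei, a log2 difference of -0.22 (edgeR adjusted p = 1.11e-05). With each library clustered on its own it was -0.051 and did not pass (edgeR adjusted p = 0.692). Kcnj6, whose product pairs with that of Kcnj3, did not pass (-0.06, edgeR adjusted p = 0.293), and neither did the background channel Kcnk2 (-0.07, edgeR adjusted p = 0.272).

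Other genes of the same pathways showed changes in both directions between the neuron classes. Of 61 further potassium channel genes in the tables, 40 had enough counts to test, and 10 were higher and 6 lower in excitatory nuclei, with a median log2 difference of 0.04. The tandem-pore gene Kcnk13 (1.62), the modifier subunits Kcng2 (2.22) and Kcng3 (1.04) and the tandem-pore gene Kcnk9 (0.69) were among those higher. Kcnk10 (-0.45), Kcnf1 (-1.41) and Kcns2 (-0.83) were among those lower. Of 12 tested accessory and assembly genes, 5 were higher and 5 lower. Dpp10 (1.34) and Dpp6 (-0.37), both partners of Kcnd channels, went opposite ways, as did the Kcnma1 partners Lrrc38 (2.80) and Lrrc55 (1.10) compared with Kcnmb2. The scaffold Ank3 was higher (0.31), while Cntnap2 (-0.45), which gathers Kcna channels on axons, Abcc8 (-0.87) and Dlg2 (-0.16) were lower. Of 12 genes that couple receptors to G protein-gated channels, 4 were higher, namely Gnao1 (0.33), Gnai2 (0.35), Adora1 (0.29) and Gng2 (0.16), and 4 lower. The 4 lower were the mu opioid receptor Oprm1 (-0.64), Rgs7bp (-0.32), Gnai1 (-0.28) and Rgs7 (-0.16). Of 13 sodium, calcium and pacemaker channel genes, 4 were higher, led by Cacna1d (0.62) and Cacna1h (0.96), and 4 lower, led by Cacna1i (-1.18). All values in parentheses are log2 differences, excitatory minus inhibitory, for genes that passed the edgeR test.

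Levels also varied between clusters of one class. Across 18 neuron clusters with at least 50 nuclei in every library (11 excitatory, 7 inhibitory), 12 of the 31 genes had a top cluster whose lowest library lay above the highest library of the second cluster, which 5.34% of the 15604 genes tested between the neuron classes also had. Abundance was not matched between the members and those genes. These values describe clusters of the same nuclei, with no test, and the genes were not used to make the clusters. Inhibitory clusters were numbered 12, 13, 17, 18, 25, 27 and 32, and the excitatory ones 4, 8, 9, 10, 11, 20, 21, 22, 24, 26 and 28.

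**Figure D3:**
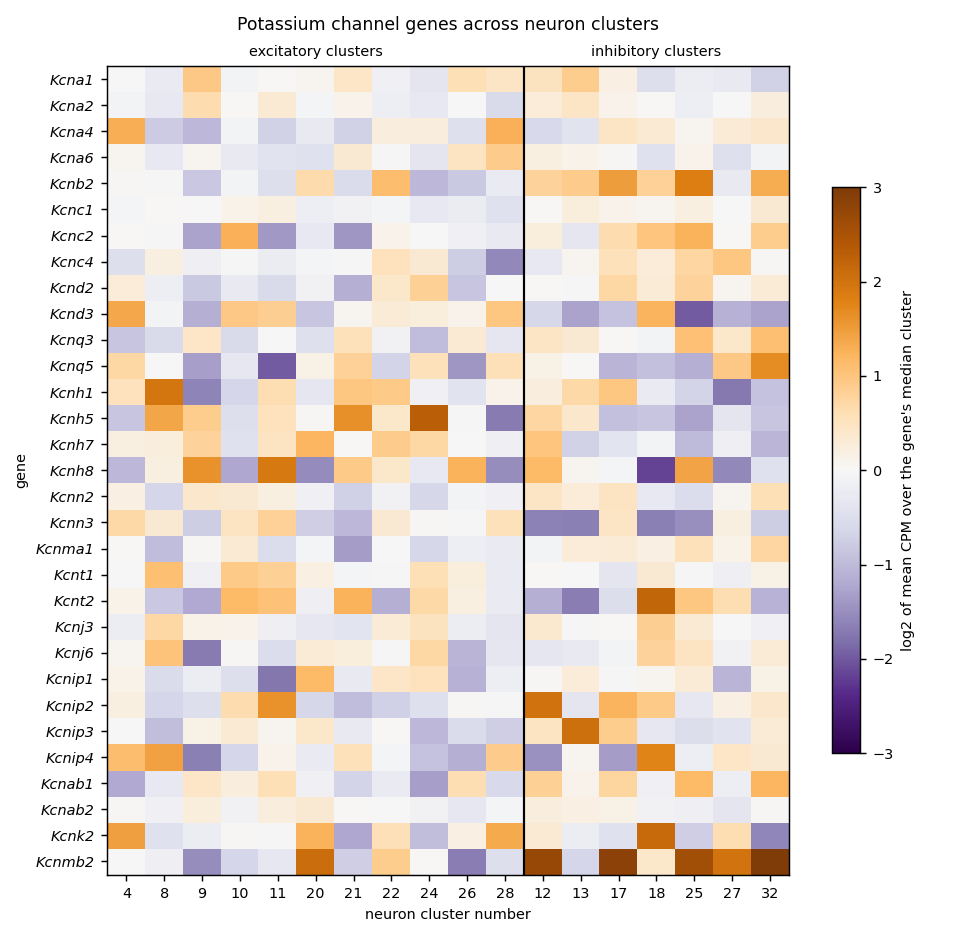
Level of each of the 31 genes (rows) in 18 neuron clusters (columns, excitatory on the left and inhibitory on the right of the line), as log2 of the mean CPM over 4 libraries relative to the gene's median cluster. Kcnmb2 is darkest in inhibitory cluster 32 far above its median cluster, and Kcnab2 and Kcnc1 stay near their medians throughout.

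Kcnmb2 was the most uneven gene. In cluster 32, led by Rxfp2, Ppef1 and Cpne7, it was 1621, 1604, 1582 and 1889 CPM, against a median of 112 CPM over the 18 clusters. It was not an inhibitory gene throughout: inhibitory cluster means ran from 71.3 to 1674 CPM, and excitatory cluster 20, led by Aldh1a2, Cdh23 and Pou4f1, held 526, 419, 509.5 and 421 CPM. The same cluster 32 was the top cluster of the M-current gene Kcnq5, at 2179, 2364, 1759 and 2138 CPM, and of Kcnma1, at 1323, 1402, 1303 and 1442 CPM. Pore and subunit of the large-conductance channel shared this top cluster. Inhibitory cluster 18, led by Gucy2d, Hmga2, Gpc4 and Nos1, had the top values of 3 genes without overlap. Kcnt2 was 1477, 1489, 1272 and 1315 CPM there, 4.58 times its median cluster. Kcnk2 was 281, 189, 212 and 214 CPM and Kcnip4 14060, 14970, 12730 and 14220 CPM in that cluster. Cluster 18 also differed from the other inhibitory clusters in Kcnd3, at 632, 589, 537 and 619 CPM, close to the 774, 614, 599 and 653 CPM of excitatory cluster 4, whereas inhibitory cluster 25 held only 50.7, 106, 44.7 and 56.9 CPM. A Kcnd3 difference between the classes therefore did not extend to every cluster. Inhibitory cluster 25, led by Tyr, had the highest Kcnb2, at 2055, 1941, 2235 and 2035 CPM. Kcnb2 cluster means ran from 479.1 to 2067 CPM in inhibitory and 285.2 to 1253 CPM in excitatory clusters, so the ranges of the classes overlapped. Kcnip3 was highest in inhibitory cluster 13, led by Hpse2 and Rorb among its leading genes, at 118, 88.2, 98.1 and 113 CPM, and the next cluster reached at most 55.6 CPM. Its inhibitory cluster means ran from 17.75 to 104.3 CPM, with a median of 30.76 CPM. Excitatory cluster means ran from 12.34 to 33.3 CPM, with a median of 25.11 CPM, so the Kcnip3 ranges of the classes overlapped. Kcnip2 was highest in inhibitory cluster 12 at 75.7, 72, 75.1 and 95.8 CPM, but excitatory cluster 11 overlapped it.

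The Kcnh genes peaked in different excitatory clusters. Kcnh1 was 377, 307, 282 and 329.5 CPM in cluster 8, which Fer1l6 and Car12 mark, and the next cluster averaged 164 CPM. Kcnh5 was 940, 638, 737 and 697 CPM in cluster 24, marked by Bnc2, Trhr and Reln, 4.88 times its median cluster. Kcnh8 was 447, 405, 359.5 and 374 CPM in cluster 11, marked by Nts and Car8. The next Kcnh8 cluster, 9, averaged 324 CPM and reached 358.1 CPM, just below the lowest library of cluster 11. Each of these 3 genes therefore had its own top cluster. Kcnip1 was highest in cluster 20 at 1243, 1118, 1090 and 1109 CPM. The least variable genes were Kcnab2 and Kcnc1, both 1.27 times their median in their top cluster.

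Neurons had more of most of these genes than glia, with a few exceptions that were higher in a glial class. Against astrocytes 23 of 31 were higher and 5 lower in neurons (excitatory and inhibitory summed; edgeR adjusted p under 0.05), where 44.8% of all genes tested passed, 23.7% higher and 21.1% lower. Against oligodendrocytes 24 were higher and 5 lower, where 69.2% of all genes passed, 34.1% higher and 35.1% lower. Against OPC 19 were higher and 2 lower, where 22.3% of all genes passed, 10.9% higher and 11.4% lower. Against microglia 23 were higher and 1 lower, where 32.4% of all genes passed, 16.1% higher and 16.3% lower. The medians of the 31 were 1.21, 2.35, 0.52 and 1.07 log2 units, and all genes had medians between -0.02 and 0.03. Neuron markers were counted in glial nuclei, most in the knockout naive library: the summed level of 7 neuron markers, none of them at 0, was 2929, 8745, 6375 and 5906 CPM in astrocytes and 14230 to 15330 CPM in excitatory nuclei. In oligodendrocytes it was 1853, 4750, 2648 and 2676 CPM, in OPC 3905, 9810, 6992 and 6968 CPM, and in microglia 4101, 11030, 8448 and 8717 CPM. Its part in the glial levels below was not tested. Without the knockout naive library the members that passed numbered 27, 30, 20 and 24 against the 4 glial classes.

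**Figure D4:**
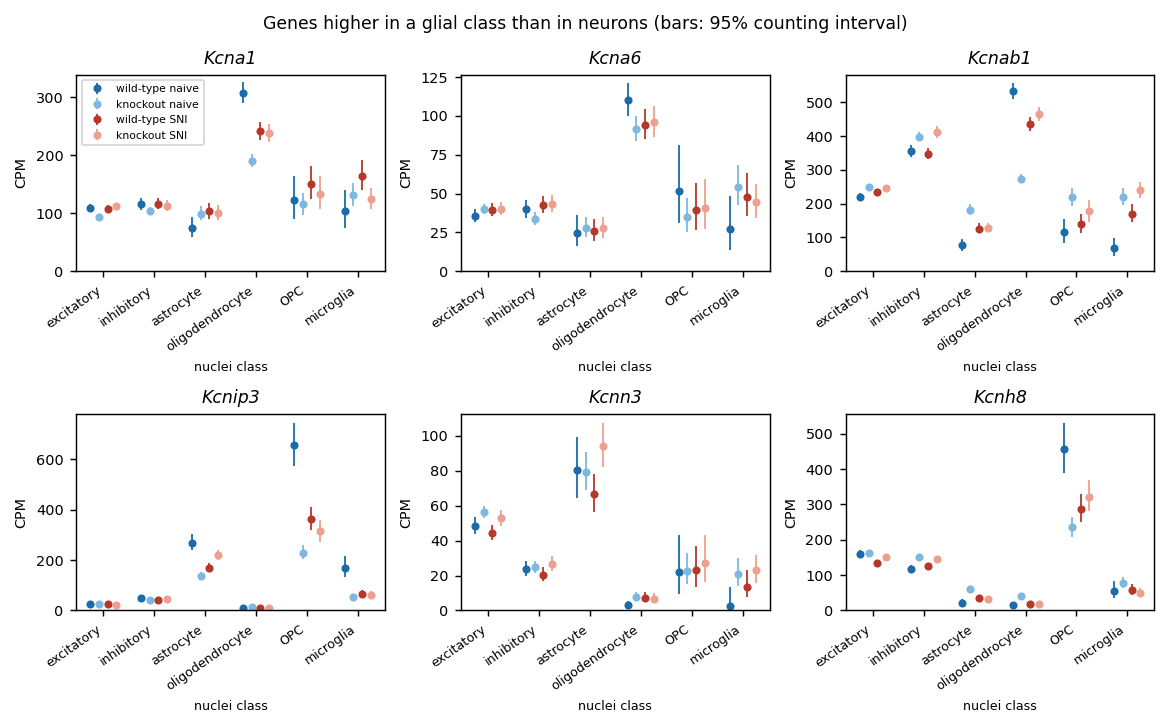
CPM of 6 genes in 6 nuclei classes, 1 point per library with its 95% counting interval. Kcna1, Kcna6 and Kcnab1 are highest in oligodendrocytes in the wild-type naive library, Kcnip3 and Kcnh8 in OPC in every library, and Kcnn3 in astrocytes in every library.

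Kcna1, Kcna2 and Kcna6, with Kcnab1 and Kcnq3, were higher in oligodendrocytes, the cells that make myelin. Kcna6 was 110.2, 91.7, 94.3 and 95.9 CPM in oligodendrocytes and 37.1, 37.8, 40.7 and 41.2 CPM in neurons, a log2 difference of -1.27 (neurons minus oligodendrocytes, edgeR adjusted p = 1.26e-05). Kcna1 was 308, 191, 242 and 238 CPM and 111, 96.4, 111 and 112 CPM, a log2 difference of -1.12 (edgeR adjusted p = 4.84e-05). In both genes every oligodendrocyte library exceeded every neuron library. Kcna2 was 81.5, 72.7, 73.6 and 62.6 CPM and 52.7, 53, 49.8 and 49.2 CPM (-0.45, edgeR adjusted p = 9.89e-04), and did not pass in nuclei with at least 1000 UMIs and 500 genes, at -0.10 (edgeR adjusted p = 0.456), or in nuclei of at least 1000 UMIs thinned to 1000, at -0.077 (edgeR adjusted p = 0.623). In nuclei with at least 1000 UMIs and 500 genes Kcna1 was -0.74 and still passed. Kcnq3 was 1009.8, 1137, 959.7 and 1145 CPM and 686, 823, 670.1 and 733 CPM (-0.50, edgeR adjusted p = 0.00266). Kcnab1 was 534, 274, 437 and 466 CPM and 271, 299, 274 and 303 CPM (-0.49, edgeR adjusted p = 0.0396). The knockout naive library was the exception for Kcnab1, with less in oligodendrocytes than in neurons, and the call was lost when any 1 of the other 3 libraries was left out (edgeR adjusted p = 0.136 to 0.180) and with DESeq2 (adjusted p = 0.0594).

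In astrocytes, which take up potassium, the higher genes were Kcnip3, Kcnc4, Kcnn3, Kcnn2 and Kcna2. Kcnip3 was 269, 138, 169 and 219 CPM in astrocytes and 34.9, 30.6, 30.5 and 31.5 CPM in neurons, a log2 difference of -2.53 (edgeR adjusted p = 1.04e-06). It was also higher than in neurons in OPC, at 655, 229, 363 and 314 CPM (-3.45, edgeR adjusted p = 8.85e-14), and in microglia, at 169, 52.9, 65.4 and 62.8 CPM (-1.08, edgeR adjusted p = 0.00137). Only against oligodendrocytes was Kcnip3 higher in neurons. The knockout naive library had the lowest Kcnip3 value in each of these 3 glial classes and also the highest neuron marker sum, whose part in these values was not tested. Kcnn3 was 80.3, 79.2, 66.5 and 94.2 CPM in astrocytes and 39.1, 45.7, 35.9 and 43.9 CPM in neurons (-0.89, edgeR adjusted p = 5.34e-05). Kcnc4 was 46.3, 36.6, 39.7 and 35 CPM and 13.7, 19.6, 18 and 19.2 CPM (-1.04, edgeR adjusted p = 4.51e-04). Neither gene overlapped between the classes. Kcnn2 was 348, 417, 597 and 395 CPM and 272, 348, 295 and 280.0 CPM (-0.47, edgeR adjusted p = 0.0206), and did not pass without either SNI library (edgeR adjusted p = 0.138 without wild-type SNI and 0.0684 without knockout SNI). Kcna2 was 79.4, 63.3, 65.1 and 58.7 CPM and 52.7, 53, 49.8 and 49.2 CPM (-0.30, edgeR adjusted p = 0.0261), and did not pass without the wild-type SNI library (edgeR adjusted p = 0.120) or with DESeq2 (adjusted p = 0.119). With each library clustered on its own, neither Kcnn2 nor Kcna2 passed (edgeR adjusted p = 0.0716 and 0.0971). In OPC the second gene above neurons was Kcnh8, at 456, 235, 287 and 322 CPM against 145, 159, 131 and 149 CPM (-1.05, edgeR adjusted p = 1.08e-06). Its lowest OPC value was again in the knockout naive library. For comparison, among the 61 further potassium channel genes the inward rectifiers Kcnj16 (-3.64) and Kcnj10 (-3.11) were the most glial against astrocytes, and Kcnk6 (-4.02) against microglia, all as log2 differences of neurons minus glia that passed the edgeR test.

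Genotype and injury were each compared between single libraries, so no test was made and the intervals cover counting error only. Members were counted when past 1.5-fold, in excitatory and inhibitory nuclei separately. The 4 contrasts share libraries in pairs. In excitatory nuclei, 1 of 31 members passed 1.5-fold for knockout against wild type in naive mice, where 18.7% of all genes with enough counts did (13.2% lower, 5.47% higher). In the other 3 contrasts 0 of 31 passed, against 4.63% of all genes for genotype in SNI, 6.19% for injury in wild type and 12.7% for injury in the knockout. In inhibitory nuclei 0 of 31 passed in any of the 4, against 16.8%, 4.56%, 5.89% and 11.8%. These counts depended on how the classes were made. With each library clustered on its own, 4 members passed for genotype in naive mice in excitatory nuclei. In inhibitory nuclei 8 then passed for genotype in SNI and 9 for injury in the knockout. The share of all genes past 1.5-fold was not counted under that clustering, so the shares above are no background for these counts. With all libraries clustered together, no member of either class passed with 1 sign in both contrasts of a factor, which 1.04% of all genes did for genotype and 0.728% for injury in excitatory nuclei, and 0.917% and 0.724% in inhibitory nuclei.

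**Figure D5:**
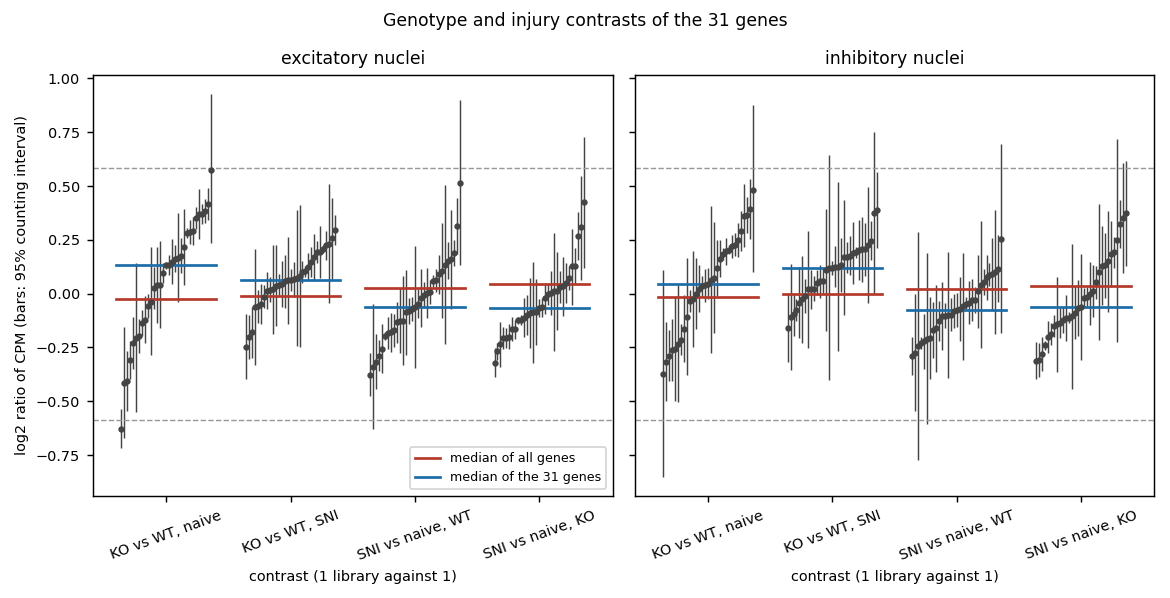
Log2 ratio of CPM for each of the 31 genes, sorted within a contrast, in excitatory (left) and inhibitory (right) nuclei, with 95% counting intervals; dashed lines mark 1.5-fold, and red and blue lines mark the medians of all genes and of the 31. All points but 1 lie inside the dashed lines, the exception being Kcnt1 in excitatory nuclei, knockout against wild type in naive mice.

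The 1 gene past 1.5-fold was Kcnt1, a sodium-activated channel. Its excitatory values were 220.3, 143, 169.7 and 148 CPM, the wild-type naive library being highest and the other 3 between 143 and 170 CPM. The log2 ratio of knockout to wild type was -0.63 (95% counting interval -0.72 to -0.54) in naive mice and -0.20 (95% counting interval -0.30 to -0.10) after SNI, and injury gave -0.38 (95% counting interval -0.48 to -0.28) in wild type. In inhibitory nuclei the same gene was 141, 118, 131 and 118 CPM, with the wild-type naive library again highest. With TMM scaling, which sets library sizes from genes of middling ratio and raised every ratio of this contrast by 0.09, Kcnt1 was -0.54 and no longer past 1.5-fold, while Kcnc4, otherwise 0.58 (95% counting interval 0.23 to 0.93), was past it on the higher side at 0.67. The excitatory Kcnc4 level, 11.8, 17.6, 16.9 and 17.8 CPM, had its minimum in wild-type naive.

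Taken as a list, the members had a median log2 ratio of 0.13, 0.06, -0.06 and -0.07 in excitatory nuclei, in the order genotype in naive mice, genotype in SNI, injury in wild type and injury in the knockout. In inhibitory nuclei it was 0.05, 0.12, -0.08 and -0.06. All genes had medians of -0.03, -0.01, 0.03 and 0.04 in excitatory nuclei. These genes are long, with a median span of 249 kb against 25.3 kb for genes tested and 26 of 31 above that median. In the upper tertile of all genes by span, the excitatory medians were 0.10, 0.06, 0.01 and -0.03, and the inhibitory medians 0.11, 0.07, -4.24e-04 and -0.04, in the same order. The members' medians and those of long genes were within 0.04 of each other for genotype in excitatory nuclei and differed more in inhibitory nuclei, where the members were lower in naive mice and higher in SNI. For injury the members' medians were below those of long genes in both classes, by more in wild type than in the knockout. Whether gene length sets these medians was not tested.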

How the data were processed

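The deposited matrices give raw counts of UMIs for each gene in each called barcode, written with Cell Ranger 7.0.0 per the file headers. GRCm38, Seurat 4.3.0 and R 4.3.0 are named per the submitters' processing notes, without a role. Aligner options and the use of intronic reads are not given there. Barcodes with fewer than 300 genes or with 5% or more mitochondrial UMIs were dropped, and the top 10% of doublet scores in each library, computed from simulated doublets, were removed. Leiden clustering (resolution 1) used 3000 variable genes without any Kcn gene. UMIs were summed per class and library, leaving out mitochondrial genes. The sums were tested with edgeR 4.0.16 (quasi-likelihood, library as block, Benjamini-Hochberg adjustment over all genes). The block pairs classes of the same library. The fit was tested on simulated counts. Contrasts between libraries used exact conditional binomial intervals. The alternatives were DESeq2 1.42.0, other filters, thinning, clustering and scaling. Per-library class values are given for members that passed between excitatory and inhibitory nuclei or passed as higher in a glial class. They are not given for members that passed only as higher in neurons than in glia. The members and gene lists were chosen with earlier results of these data known. Gene positions are from GENCODE vM21, and promoters from RefSeq.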

Additional observations from a re-analysis of the deposited data

How the results depend on the processing

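Without the replicate block, which pairs the neuron classes of a library, 12 members passed between excitatory and inhibitory nuclei (3 higher, 9 lower) and 1838 of all genes against 4486 with it; the block changed no other count of members by over 1.5 times. DESeq2 called 2408 of all genes there and 18 members. Leaving out 1 library gave 22 to 23 members between neuron classes, 24 to 27 against astrocytes, 28 to 30 against oligodendrocytes, 18 to 22 against OPC and 17 to 26 against microglia, the 17 without wild-type SNI. Of all genes against OPC, 3418 passed, but 2210 without wild-type SNI, 2136 in nuclei with at least 1000 UMIs and 500 genes, and 1945 after thinning to 1000 UMIs; against microglia, 5067 passed, but 3037 without wild-type SNI and 3271 without knockout SNI. Kcnt2 reversed to 0.18 with each library clustered on its own. Values of single members in the class tests moved by over 1.5 times in 38 cases, of which 23 kept direction and call. Members past 1.5-fold in excitatory nuclei, genotype in naive mice, numbered 2 with equal cluster makeup, 3 at resolution 0.5, 4 with own clustering and 2 after thinning. With own clustering they numbered 1 for injury in wild-type excitatory nuclei and, in inhibitory nuclei, 2 and 8 for genotype in naive and SNI mice and 2 and 9 for injury in wild type and knockout. Thinning gave 1 in inhibitory nuclei for genotype in naive mice and 1 for injury in wild type. The share of all genes past 1.5-fold was not counted under any of these alternatives. The cause was not tested. Neurons against oligodendrocytes with own clustering was not run, because 1 library then had no nuclei named so. Kcna4, Kcnip2, Kcnip3 and Kcnc4 had the fewest UMIs among neurons. Of 1354 alternative values for single genes, 1273 kept their direction and side of the threshold, 79 kept the direction but no longer passed, 1 reversed and 1 moved. Only members that passed in the main setting entered this tally, so gained calls are not in it. At resolution 0.5, 26 members passed between the neuron classes against 23. The 8 values of Kcnt1 for genotype in naive excitatory nuclei were judged by its counting interval in place of the threshold.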
